A study of Mus musculus with 2 samples.

Results

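Potassium channel genes were followed in whole mouse lung shortly before birth. Members were the probe sets of an Affymetrix mouse array whose single symbol in the platform table starts with Kcn, leaving out the RNA Kcnq1ot1. This rule gave 161 probe sets of 83 genes, out of 34945 probe sets of 18193 named genes. Of the 83 genes, 81 encode pore or accessory subunits of channels and 2, Kcnmb4os1 and Kcnmb4os2, are antisense RNAs. Members were chosen by symbol. The measured signal entered where a gene was called detected and in the choice of its brightest probe set, so those values are given as a description.

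Total RNA came from whole lungs at embryonic day 18. One group was wildtype and the other was homozygous for nmyc9a (here Nmyc9a), a hypomorphic allele of Mycn, which encodes the transcription factor N-Myc. Each group held 1 array made from pooled lungs. The sources used here do not give the number of animals in a pool, their strain or their sex, and nothing labelled is shared by both groups beyond tissue and age. With 1 array per group there was no replicate, no test could be run, and no difference below has a replicate check. The spread available was that among different probe sets for a gene, whose pooled SD in log2 units was 0.40 (1.32-fold) across 5671 genes. It covers probe behaviour and shows nothing of the spread between animals or arrays.

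Potassium channels let potassium leave or enter cells down its gradient, which sets the resting voltage and ends electrical activity. Pore subunits fall into voltage-gated, inward rectifier, tandem-pore domain, and calcium- or sodium-activated families, and accessory subunits change gating or transport to the membrane. In lung, potassium channels of pulmonary artery smooth muscle help to set vascular tone, and channels of airway and alveolar epithelium help to drive the chloride secretion that fills the fetal lung with liquid.

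Signals are linear intensities after the array labelled Nmyc9a was scaled by 0.977, and each pair of signals gives the wildtype array first. A probe set was called measured where the mean of its signals reached a floor of 49.3, the 40th percentile of all signals. A gene took its brightest probe set. Values under the floor were raised to it before a ratio was taken, so such a ratio is a bound and is written as "at least". Ratios are of the array labelled Nmyc9a over the wildtype array. The deposited medians were 66 and 77.7. The defining surfactant markers of type 2 alveolar cells were all far above the floor, with Sftpc at 8639 and 8964, which matches the labelled tissue. Mycn itself read 66.3 and 84.8 for the brightest of its probe sets (log2 ratio 0.36), 51.1 and 85.4 for a second (0.74), and 19.7 and 33.9, below the floor, for the last. All 3 were higher on the array labelled as carrying the hypomorphic allele. The position of its probes against the change in the allele is not known here, so these signals do not check the label, and directions rest on the label alone.

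Most potassium channel probe sets were dim. Of the 161, 52 (32.3%) were measured, against 64.3% of all named probe sets. Above the floor on both arrays stood 45 (28%), against 59.5% of all named probe sets. A further 16 were above it on 1 array, 8 of them wildtype only and 8 Nmyc9a only, and 100 were above it on neither. By gene, 40 of 83 (48.2%) were measured, against 69.3% of all named genes. Of these 40, 33 had a brightest probe set above the floor on both arrays and 7 on 1 array.

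Olfactory receptor genes, which act mainly in the nasal epithelium, were read beside them. Their probe sets passed the floor about as often: 13 of their 44 probe sets (29.5%) were measured and 11 (25%) stood above it on both arrays. By gene, 13 of 39 olfactory receptors (33.3%) were measured, a lower share than the 48.2% of potassium channel genes, which have more probe sets each. The middle olfactory receptor probe set was brighter, with a median signal of 40.8 against 25.8 for potassium channel probe sets. At higher signals the order turned. The olfactory receptor probe sets had a 95th percentile of 83 and a highest mean signal of 117. Of the potassium channel probe sets 31 (19.3%) lay above that 95th percentile and 17 (10.6%) above that highest value, against 50.2% and 40.4% of all named probe sets. The comparison with olfactory receptors at higher signals was chosen after their values were seen, and both cuts are their own values.

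**Figure D1:**
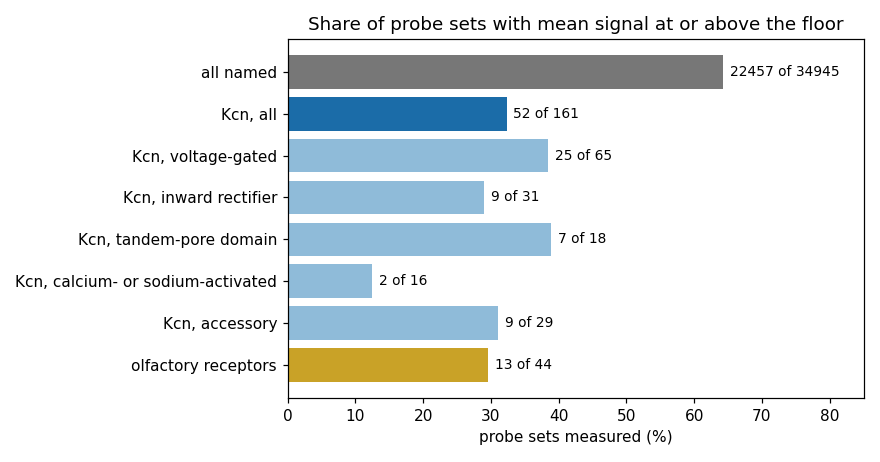
Share of probe sets (%) whose mean signal over the 2 arrays reached the floor, with counts beside each bar. Potassium channel probe sets (52 of 161) sit near olfactory receptors (13 of 44) and far under all named probe sets (22457 of 34945), and the calcium- or sodium-activated family has the smallest share, 2 of 16.

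**Figure D2:**
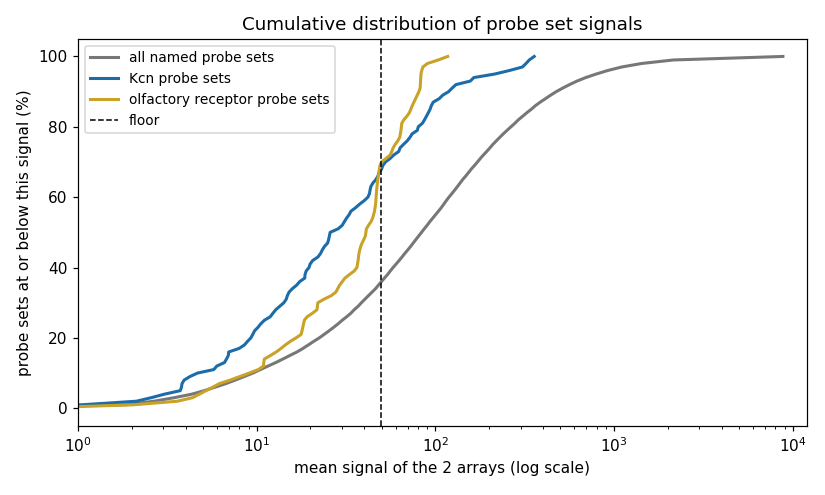
Cumulative share of probe sets (%) against mean signal of the 2 arrays on a log scale, for all named, potassium channel and olfactory receptor probe sets, with the floor of 49.3 dashed. The potassium channel curve crosses that of the olfactory receptors near the floor and then runs on to 357, beyond their highest value of 117.

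By mean signal, 13 genes had a brightest probe set that exceeded every olfactory receptor probe set. They were the inward rectifiers Kcnj3, Kcnj8, Kcnj11, Kcnj13 and Kcnj15, the tandem-pore channels Kcnk1, Kcnk3, Kcnk6 and Kcnk13, the voltage-gated channels Kcna2, Kcnh3 and Kcnq5, and the accessory subunit Kcne4. Kcnq5 belongs to this group by the array labelled Nmyc9a alone, since its wildtype signal was below the floor. Kcnk3 only just passed, with a mean of 118.6 against 117. Kcnk3, Kcne4, Kcnj3 and Kcnk13 were each under 117 on 1 array.

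Among inward rectifiers, which pass potassium more easily into than out of the cell, 7 of 15 genes were measured. Kcnj8, a pore subunit of ATP-sensitive channels in vascular smooth muscle and pericytes, read 303 and 347. Kcnj11, the other ATP-sensitive pore subunit, read 249.5 and 295, and Kcnj13, which mouse trachea needs for its normal shape, read 269.8 and 345. Their log2 ratios were 0.19, 0.24 and 0.36, all under 1.5-fold, with no replicate to judge them by. Kcnj15 read 318 and 376 (log2 ratio 0.24) and Kcnj6, a G-protein-gated channel, 87.4 and 95.7 (0.13). Kcnj3, also gated by G proteins and known from heart and brain, read 143 and 106 (-0.43). Kcnj16 was below the floor on the wildtype array (37.8 and 70.6, log2 ratio 0.52 or higher). So 6 of the 7 measured inward rectifiers stood above 0, against 41.2% of all measured genes. None was called 1.5-fold apart by its brightest probe set. For Kcnj16 the ratio is a bound, and with a floor at the 20th percentile its log2 ratio was 0.86. A further Kcnj15 probe set was more than 1.5-fold apart, at 82.4 and 224. Kcnj6 was below 0 under quantile normalization (-0.035) and at 0.003 under loess. Kcnj2, a widely expressed inward rectifier, read 22.8 and 9.38, below the floor on both arrays, as were Kcnj1, Kcnj4, Kcnj5, Kcnj9, Kcnj10, Kcnj12 and Kcnj14.

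Tandem-pore channels carry the background current that holds cells near their resting voltage. Of 12 genes 6 were measured, all on both arrays. Kcnk1 was lower on the array labelled Nmyc9a, at 197 and 119 (log2 ratio -0.73). Kcnk6 read 284 and 329 (0.22) and Kcnk3, a channel of pulmonary artery smooth muscle that is mutated in some human pulmonary hypertension, 101.5 and 136 (0.42). Kcnk13 read 136 and 113 (-0.26), and Kcnk2, a channel opened by membrane stretch, 101 and 81.3 (-0.31). Kcnk16, known mainly from pancreatic islets, read 91 and 127 (0.48). The measured members split evenly, 3 above 0 and 3 below, and only Kcnk1 was 1.5-fold apart.

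Voltage-gated pore and silent modifier subunits, which open or tune channels during depolarization, made up 31 genes, of which 17 were measured and 14 were above the floor on both arrays. The median log2 ratio of the measured genes was -0.03. Above 0 stood 6 of the 17 and below it 11, against 41.2% of all measured genes above 0. Kcnh3, an ether-a-go-go related channel known mainly from forebrain, had a brightest probe set of 306 and 408 (0.42), and Kcna2 one of 176 and 151 (-0.22). Other probe sets of both genes had the opposite sign. Kcnq1, a channel of heart and secretory epithelia, read 98.7 and 114 (0.21), and Kcnh2, which repolarizes heart muscle, 67.1 and 55.8 (-0.27). Kcna3, a channel of lymphocytes, read 84.1 and 76.3 (-0.14) and Kcnc1 97.7 and 73.7 (-0.41). Kcnd1, Kcnh1 and Kcna6, with Kcns2 and Kcns3 as silent subunits, had log2 ratios between -0.12 and -0.01 and signals of 69.9 to 98.4. Kcna4 read 58.4 and 74.2 (0.34), Kcnh8 49.4 and 52.3 (0.08) and the silent subunit Kcnv2 53.7 and 47 (-0.12 or lower). Kcna5, a voltage-gated channel described in pulmonary artery smooth muscle, read 34.4 and 28 and was not measured. Kcna1, Kcnc2, Kcnc4, Kcnd2, Kcnf1, Kcng1, Kcng2, Kcng4, Kcnh5, Kcnh7, Kcnq3, Kcns1 and Kcnv1 were not measured either.

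Calcium- and sodium-activated channels were the dimmest family, with 2 of 8 genes measured. Kcnma1, the pore of the large-conductance channel of smooth muscle, had 5 probe sets and only 1 was measured, at 42.1 and 63 (0.35 or higher). A second Kcnma1 probe set stood above the floor on the wildtype array alone, at 55 and 15.9. Kcnt1, a sodium-activated channel, read 53.7 and 71.5 (0.41). Kcnn1, Kcnn2, Kcnn3, Kcnn4, Kcnt2 and the sperm channel gene Kcnu1 were below the floor on both arrays, among them Kcnn4, a calcium-activated channel of epithelial and blood cells, at 16.1 and 15.2.

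Of 15 accessory genes 8 were measured. All 3 beta subunits of the large-conductance channel were among them. Kcnmb1, the smooth muscle form, read 59 and 81.1 (0.46) by its brighter probe set and 31.5 and 46.8, below the floor, by the other. Kcnmb2 read 121 and 102 (-0.25, with a second probe set at 0.08) and Kcnmb4 79.3 and 96.3 (0.28). Kcne4, a single-span subunit that inhibits Kcnq1 channels, read 222 and 109 (-1.02). Kcne2, another single-span subunit that pairs with Kcnq1, read 98.2 and 101 (0.04). The beta subunit Kcnab1 read 86.1 and 40.5, below the floor on the array labelled Nmyc9a, and Kcnab2 read 50 and 63.8 (0.35). Kcnip1, a calcium sensor of voltage-gated channels, read 44.5 and 57.1 (0.21 or higher). Kcnab3, Kcne1, Kcne1l, Kcne3, Kcnip2, Kcnip3 and Kcnip4 were not measured, nor were both antisense RNAs.

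**Figure D3:**
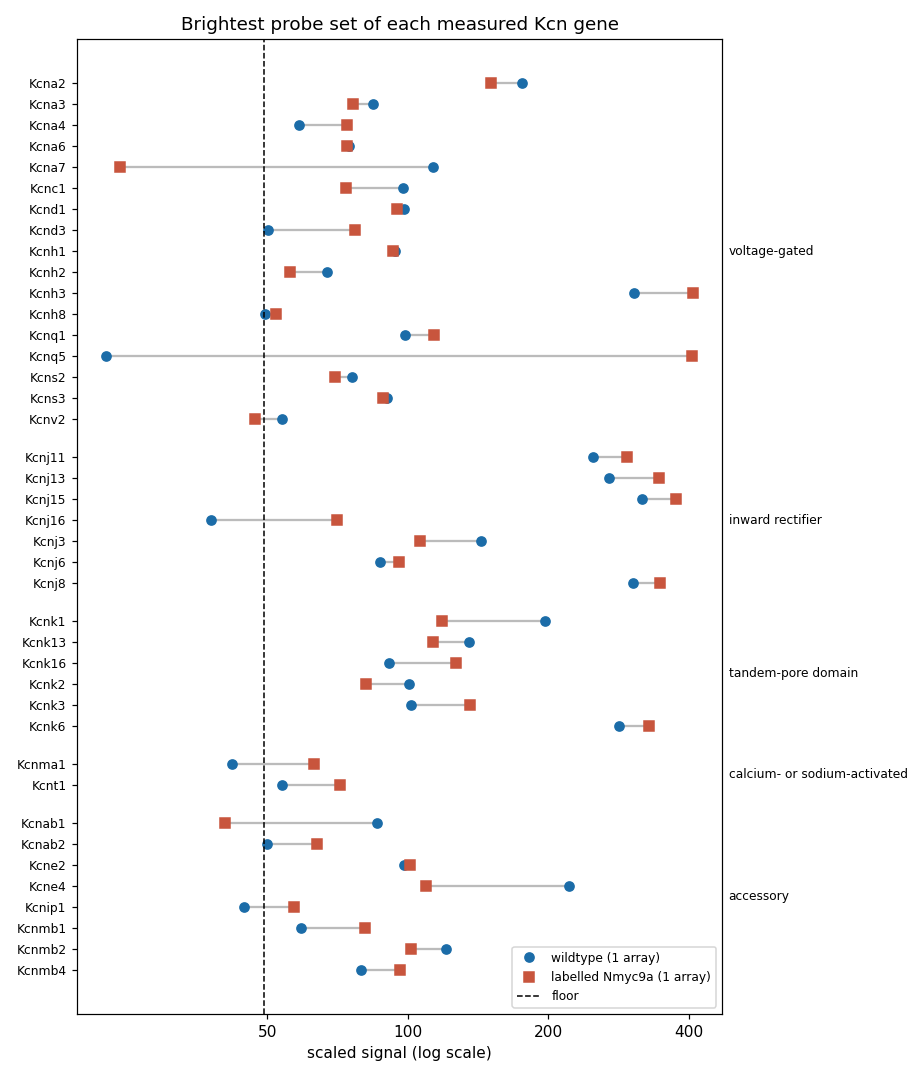
Scaled signals on a log axis of the brightest probe set of each of the 40 measured genes, wildtype array as circles and array labelled Nmyc9a as squares, 1 array each, with the floor of 49.3 dashed. Most pairs lie close together, and Kcnq5, Kcna7, Kcne4 and Kcnab1 are the widest apart.

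Few of the measured genes were far apart between the arrays. At 1.5-fold 2 of 40 (5%) were higher on the array labelled Nmyc9a, against 6.32% of all 12600 measured genes, and 4 (10%) were lower, against 9.71%, so both shares were near the background. At 2-fold 1 (2.5%) was higher and 2 (5%) were lower, against 1.29% and 1.38% of all, and these counts are of single genes. Among the genes counted, Kcnq5, Kcna7 and Kcnab1 were below the floor on 1 array and were measured through the other alone. Quantile normalization and loess each gave 1 higher and 4 lower at 1.5-fold. The median log2 ratio of the 40 was 0.11, against -0.09 for all measured genes, with 22 (55%) above 0 against 41.2%. That median went below 0 under quantile normalization (-0.07), with a floor at the 20th percentile (-0.02) and with RefSeq mRNA probe sets only (-0.14), where the median of all measured genes was -0.10, -0.11 and -0.15. Loess gave 0.03, against -0.04 for all measured genes. Under quantile normalization 19 of the 40 stood above 0, and under loess 21. Potassium channel probe sets were dimmer, with a median signal of 25.8 against 83.6 for all named, and these comparisons were not matched on signal. In whole-lung RNA, fewer cells of a type and less RNA per cell cannot be told apart.

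Kcnq5, a slowly activating voltage-gated channel of the M-current family, was the gene farthest apart. The brightest of its probe sets gave a wildtype signal of 22.6 against 407, at least 8.25-fold higher on the array labelled Nmyc9a. The second probe set, however, read 68.5 and 89.6 (log2 ratio 0.39), and the third 23.4 and 21, below the floor on both. The large difference was thus seen by 1 of 3 probe sets, and the log2 ratios of the 2 measured probe sets lay at least 2.66 apart. Kcnd3, a voltage-gated channel of transient outward current, was the other higher gene, at 50.2 and 76.9 (1.53-fold). Its wildtype signal lay just over the floor, its other 3 probe sets were below the floor on both arrays, and it was under 1.5-fold in 4 of 7 alternatives that gave it a value.

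The 4 lower genes differed in how well they were measured. Kcne4 read 222 and 109, a 2.03-fold difference above the floor on both arrays by its single probe set. Kcnk1 was 1.66-fold lower by its brightest probe set, and its second probe set, at 62 and 53.5, had a log2 ratio of -0.21 in the same direction. Kcna7, a voltage-gated channel known mainly from heart and skeletal muscle, read 113 and 24.1 by its single probe set, at least 2.30-fold lower. Kcnab1 was at least 1.75-fold lower, and its second probe set was below the floor on both arrays at 19.7 and 19.5. Among alternatives that gave a value, Kcne4 was at least 1.5-fold lower in 10 of 10 and Kcnk1 in 9 of 10. Kcna7 was so in 8 of 8 and Kcnab1 in 6 of 6. Every alternative reprocessed the same 2 arrays, so these counts are no replicate check. Kcne4 has a single probe set, so alternatives that change only the choice of probe set could not move it.

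Markers of tissues known for these channels were read as well. Over all measured genes, 6.32% were 1.5-fold higher and 9.71% lower. Of 7 measured smooth muscle and pericyte markers 4 were 1.5-fold lower and none higher, with a summed signal of 5074 and 3552. The lower markers were Acta2, the largest part of the sum, at 2825 and 1670, Tagln at 751 and 482, Myh11 at 235 and 77.2, and Rgs5 at 324 and 150.1. The other 3 stood above 0: Pdgfrb at 574 and 729, Cspg4 at 270.5 and 319, and Des at 95 and 124. Of 5 skeletal muscle markers 2 were measured and both were higher, with a sum of 94.7 and 366. Acta1, 1 of these 2, was below the floor on the wildtype array (41.1 and 219) and was measured through the other array alone. Of 5 heart muscle markers 3 were 1.5-fold higher, with a sum of 827 and 980.0. Tnni3 read 199.6 and 133 (-0.58, just under 1.5-fold lower) and Nppa 233 and 201. Of 3 measured nerve and glia markers none was 1.5-fold apart, with a sum of 414 and 345. S100b was below the floor on both arrays. Elavl4, also not measured, was above it on the wildtype array alone, at 61.7 and 25.3. All 3 measured markers of dividing cells were lower, with a sum of 1530 and 667. The part of these differences in the potassium channel ratios was not tested.

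Probe sets of a gene often disagreed in detection, at a share not far above that of all genes. Of the 83 genes 45 had at least 2 probe sets, up to 5. All probe sets were measured in 4 of the 45 (8.89%), some in 22 (48.9%) and none in 19 (42.2%). Over all 9010 named genes with at least 2 probe sets, the shares were 43.2%, 42.6% and 14.2%. The middle class is the one that disagrees in detection. The smaller first share and larger last share stand beside fewer measured probe sets, 32.3% against 64.3%. Kcnj11 illustrates the middle class, with 1 probe set at 249.5 and 295 and the other at 19.4 and 14.1. Kcnk3 had 1 probe set at 101.5 and 136 and the others at 12.4 and 9.67 and at 4.9 and 14.8. Probe sets whose representative accession is a RefSeq mRNA were measured in 17 of 42 cases (40.5%), and those built on other records, or with none listed, in 35 of 119 (29.4%). Over all named probe sets the shares were 66.1% and 63.9%.

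Agreement in direction could be read for 9 genes with at least 2 measured probe sets. In 6 of them (66.7%) all measured probe sets had the same sign, against 50.2% of all 5671 such genes, but 3 of the 6, Kcna6, Kcnd1 and Kcns3, had every log2 ratio between -0.21 and -0.01. With the signals as deposited the count was 3. The other 3 of the 6 were Kcnk1, Kcnq5 and Kcnj15. The pooled SD between probe sets was 0.67 for the 9 genes and 0.42 without Kcnq5, against 0.40 over all genes.

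Kcnj15 and Kcnh3 show how far the choice of probe set matters. In Kcnj15, an inward rectifier of epithelia, 2 probe sets read 318 and 376 and 309 and 346, log2 ratios of 0.24 and 0.16. The remaining Kcnj15 probe set read 82.4 and 224 (log2 ratio 1.44). In Kcnh3 the brightest probe set had a log2 ratio of 0.42, an x probe set built on the same target record 0.01 (238 and 240.1), and the probe set built on a RefSeq mRNA -0.53 (111 and 76.6). Kcna2 differed in sign as well: its brightest probe set stood at -0.22, while its RefSeq mRNA probe set (108 and 139) and a further one (72.9 and 92.7) stood at 0.36 and 0.35. Kcnmb2 had log2 ratios of -0.25 and 0.08 (93.2 and 98.2 by the second). The direction of Kcnh3, Kcna2 and Kcnmb2 thus depends on the probe set, and the counts by sign use the brightest.

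**Figure D4:**
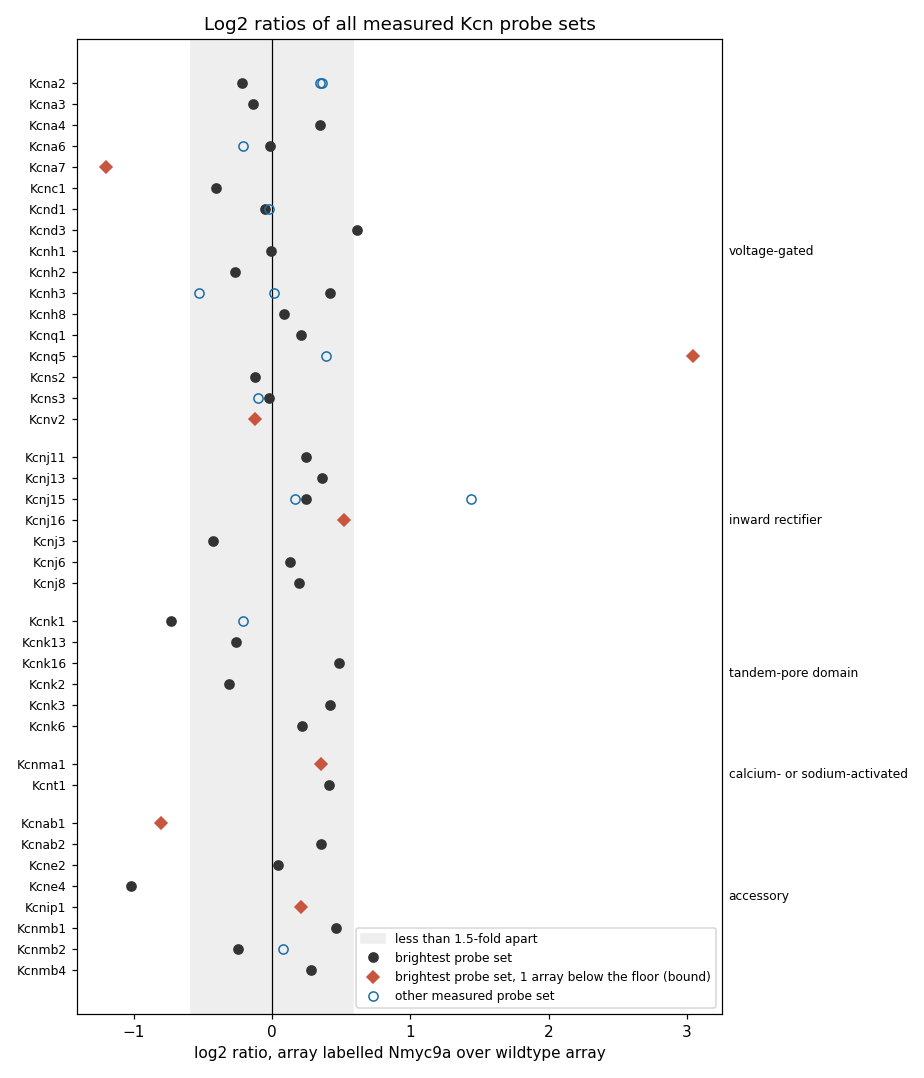
Log2 ratio of the array labelled Nmyc9a over the wildtype array for every measured potassium channel probe set, 1 line per gene. Filled circles are brightest probe sets, diamonds are brightest probe sets with 1 array below the floor (bounds), open circles are other measured probe sets, and the grey band holds differences under 1.5-fold. Only 6 brightest probe sets and 1 further probe set of Kcnj15 lie outside the band, and the measured probe sets of Kcnq5 lie at least 2.66 apart.

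N-Myc binds DNA at the E-box CACGTG, so promoters of the genes that were 1.5-fold apart were read for it. The windows run from 250 bases before to 50 bases after each annotated start in RefSeq, GRCm38.p6, and the motif is its own reverse complement. Of 6 genes, Kcne4 and Kcnab1, both on the lower side, held it, and Kcna7, Kcnd3, Kcnk1 and Kcnq5 did not. Among all 63 potassium channel genes with a window 5 (7.94%) held it, against 8.09% of all 27025 genes, a share near the background. The others were Kcnj2, Kcnk5 and Kcnn4, none of them measured. The 250 bases before the start are shown for the Kcne4 window and for both Kcnab1 windows with the motif, the middle and last of 3 annotated starts, on the plus strand, with the motif in capitals. The Kcne4 window lies at chr1:78816661-78816910 and those of Kcnab1 at chr3:65108764-65109013 and chr3:65187853-65188102.
Kcne4: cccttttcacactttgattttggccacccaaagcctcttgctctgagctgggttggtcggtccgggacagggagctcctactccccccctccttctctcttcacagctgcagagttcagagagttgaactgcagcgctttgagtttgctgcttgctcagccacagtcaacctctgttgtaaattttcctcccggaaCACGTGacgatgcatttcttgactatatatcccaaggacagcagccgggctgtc
Kcnab1, middle start: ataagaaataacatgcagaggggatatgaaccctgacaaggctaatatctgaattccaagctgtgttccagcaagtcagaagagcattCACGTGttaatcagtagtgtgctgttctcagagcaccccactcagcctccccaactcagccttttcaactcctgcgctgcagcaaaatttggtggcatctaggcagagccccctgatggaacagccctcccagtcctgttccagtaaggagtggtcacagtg
Kcnab1, last start: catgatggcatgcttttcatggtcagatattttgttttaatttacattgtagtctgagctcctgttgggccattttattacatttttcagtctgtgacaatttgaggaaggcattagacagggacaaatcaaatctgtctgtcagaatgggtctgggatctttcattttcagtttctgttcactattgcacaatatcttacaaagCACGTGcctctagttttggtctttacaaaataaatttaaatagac
The match describes letters only, and no binding was measured.

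Partners of potassium channels outside the Kcn symbols were read from a list. Of 25 genes listed, 18 had a probe set used here and 14 were measured, none of them 1.5-fold higher or lower, against 6.32% and 9.71% of all measured genes, with log2 ratios from -0.38 to 0.38. Abcc9, the sulfonylurea receptor that pairs with Kcnj8, read 477 and 393 (-0.28), against 303 and 347 for Kcnj8. Abcc8, the receptor that pairs with Kcnj11 in islets and neurons, read 73.9 and 74.4 (0.01). Dpp6, a partner of the Kcnd channels, read 90.6 and 69.6 (-0.38), and Lrrc26, a gamma subunit of the large-conductance channel, 119 and 95.7 (-0.31). Akap9, a scaffold of Kcnq1, read 303 and 327 (0.11). Slc12a2, the cotransporter that loads epithelial cells with chloride and potassium, read 4040 and 3320 (-0.28), and the sodium-potassium pump subunit Atp1b1 2443 and 2509 (0.04). The related pacemaker channel Hcn2 lay at the floor, at 48.7 and 51.9 (0.07 or higher).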

How the data were processed

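Whole-lung RNA was labelled with biotin and run on Affymetrix arrays, per the labels. The authors deposited linear signal intensity values for 45101 probe sets per array, but the sources used here do not state the summarisation and scaling behind them. The 64 control probe sets were set aside. Signals of the second array were scaled by 0.977 to bring the median log2 ratio of measured probe sets to 0, a shift of 0.03. Symbols came from the platform table and were updated through Entrez identifiers, which matched 34741 of 34945 probe sets. Promoter sequences are RefSeq's, GRCm38.p6. Genes were counted at 1.5-fold and 2-fold, with no test. Every measured Kcn gene could be named, and genes that were 1.5-fold apart or had at least 2 measured probe sets got full values. Members and lists were chosen with earlier results of these data known. The marker lists covered smooth muscle and pericyte, endothelium, alveolar, airway, neuroendocrine, nerve, heart, skeletal muscle, macrophage, red cell, liver, mesothelium and dividing cells. Calculations used Python 3.11.15 with pandas 2.3.3 and were tested on simulated arrays. The number of arrays limits the precision.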

Additional observations from a re-analysis of the deposited data

How the results depend on the processing

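With 1 array per group no difference has a replicate check, and signals near the floor limit what the 40 measured genes can show. No paired analysis was possible because each group held 1 array. A value counted as moved when a count differed by over 1.5 times or a log2 ratio by over the SD between probe sets. Of 334 single-gene values under 10 alternatives 325 did not move, 9 moved and 0 of those for genes 1.5-fold apart changed sign. Taking the median over its probe sets, Kcna2 stood at 0.35, and Kcnh3 at -0.53 with RefSeq mRNA probe sets only. The median log2 ratio ranged from -0.14 to 0.27. With the signals as deposited 1 gene was 2-fold lower and 3 had all probe sets of the same sign. Quantile normalization and loess each left 1 gene 1.5-fold higher. With a floor at the 20th percentile 66 genes were measured, 88 probe sets were above it on both arrays, 5 genes were 1.5-fold higher, 8 lower, 3 were 2-fold higher, 4 lower, and 11 had probe sets of the same sign. With a floor at the 60th percentile these were 16, 15, 1, 2, 1, 0 and 2. A pseudocount of 32 in place of the floor left 1 gene 1.5-fold higher and 1 gene 2-fold lower. Further alternatives were chosen after seeing the data. A floor at the 95th percentile of olfactory receptor probe sets gave 24 genes measured, 25 probe sets above it on both arrays, 1 gene 1.5-fold higher, 2 lower, 1 gene 2-fold lower and 2 with the same sign. RefSeq mRNA probe sets only gave 17 genes, 15 probe sets, 0 genes higher at 1.5-fold or 2-fold, and 0 with the same sign, since none then had more than 1 measured probe set. The causes of the moved values were not tested.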

Other observations

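Several potassium channel probe sets were above the floor on 1 array while their mean stayed under it, and no ratio is drawn from them. Kcnh7, a voltage-gated channel, read 26.4 and 59.1, and Kcnip3, a calcium sensor of voltage-gated channels, 27.7 and 58.4. Kcnip4, of the same family, read 52.1 and 40.7. The fourth probe set of Kcna2 read 23.2 and 72.2, and a second one of Kcnc1 33.9 and 63.3, whereas the measured Kcnc1 probe set read 97.7 and 73.7. A further Kcnd1 probe set read 56.8 and 34, a second one of Kcnh1 58 and 37.4, and a second one of Kcnj6 58.8 and 37.7. Of the further cell-type lists, none of 5 endothelial markers and none of 4 measured type 2 alveolar markers was 1.5-fold apart, while 1 of 5 type 1 alveolar markers, 1 of 4 macrophage, 2 of 3 measured mesothelium and 2 of 3 measured red cell markers were lower and none of these lists had a higher member. Of 4 ciliated markers 2, Foxj1 and Ccdc39, were 1.5-fold higher and none 1.5-fold lower. Tppp3, the brightest of the 4, read 409 and 276 (-0.57, just under 1.5-fold lower), and Dnah5 stood at -0.03. Of 3 measured liver markers 2 were 1.5-fold higher and none lower. No measured club (3) or neuroendocrine (2) marker was 1.5-fold apart. Over all measured genes, 6.32% were 1.5-fold higher and 9.71% lower.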
